A study of Homo sapiens with 12 samples.

Results

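The miR-23, miR-27 and miR-24 clusters were followed through 9 mature strands: hsa-miR-23a-5p, hsa-miR-23a-3p, hsa-miR-23b-3p, hsa-miR-27a-5p, hsa-miR-27a-3p, hsa-miR-27b-5p, hsa-miR-27b-3p, hsa-miR-24-3p and hsa-miR-24-2-5p, written without the species prefix from here on. They were chosen by name, from the miR-23a/27a/24-2 cluster and the miR-23b/27b cluster, and are 9 of the 1346 miRNA entries in the count tables. All 9 passed the filter on low counts, which left 374 entries for testing. Small RNA of HCT116, a cell line from a human colorectal carcinoma, was sequenced in 12 libraries by AQ-seq, a protocol built to reduce the ligation bias of small-RNA libraries. In all 6 groups of 2 libraries the cells carried a rescue DICER: the R821E mutant, the E5 mutant, the A5 mutant, the ΔPAZ helix mutant, the R821A mutant, or the wild type (WT). By their names, R821E and R821A place glutamate or alanine at arginine R821, and ΔPAZ helix lacks the PAZ helix; the labels do not spell out E5 or A5, nor how the rescue was made or whether a group is 1 clone. The series is about the structure of human DICER on a precursor while it cuts, and each mutant was set against WT for its effect on mature miRNAs. Whether the 2 libraries of a group were grown as separate cultures is not stated. The p-values therefore measure only the spread between libraries of a group, pooled over the 6 groups, which may be technical.

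DICER binds the ends of a precursor hairpin, removes its loop, and leaves a duplex of a 5p and a 3p strand. In the usual course one strand is kept by an Argonaute protein as the guide, and its seed, bases 2 to 8, pairs with target mRNAs, while the other strand is degraded. In these clusters the 3p strands are the usual guides: miR-23a is known to repress glutaminase, miR-27 to repress PPARG and FOXO1, and miR-24 to repress cell-cycle genes such as E2F2.

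The mature sequences are shown because the members fall into pairs that share a seed, given in capitals. They come from RefSeq, build GRCh38.p14, where 9 of 9 members were matched by name. The strands that act as guides are the first set.
miR-27a-3p: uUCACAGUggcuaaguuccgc
miR-27b-3p: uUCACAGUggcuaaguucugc
miR-23a-3p: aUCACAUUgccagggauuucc
miR-23b-3p: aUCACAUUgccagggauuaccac
miR-24-3p: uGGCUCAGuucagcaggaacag

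Counted from the 5′ end, miR-27a-3p and miR-27b-3p differ by C19U alone, and miR-23a-3p and miR-23b-3p differ over their first 21 bases by U19A alone. No source used here states how reads matching both paralogues were counted, so the a and b values are uncertain singly. The sequence of miR-24-3p is the same from MIR24-1 and MIR24-2, and its counts pool both hairpins. The 5p members are shown next because, unlike the 3p strands, the miR-27 pair has distinct seeds here.
miR-27a-5p: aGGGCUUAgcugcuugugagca
miR-27b-5p: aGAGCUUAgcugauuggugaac
miR-23a-5p: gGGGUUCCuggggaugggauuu
miR-24-2-5p: uGCCUACUgagcugaaacacag

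miR-27a-5p and miR-27b-5p differ at 8 of 22 positions, so their reads can be told apart. In GRCh38.p14, MIR23A (chr19:13836587-13836659), MIR27A (chr19:13836440-13836517) and MIR24-2 (chr19:13836287-13836359) lie together on the minus strand, within an exon of the noncoding gene AC020916.1 in the GENCODE annotation. MIR23B (chr9:95085208-95085304) and MIR27B (chr9:95085445-95085541) lie on the plus strand in an intron of the protein-coding gene C9orf3, and MIR24-1 (chr9:95086021-95086088) overlaps an exon of a C9orf3 transcript. The 2 miR-27 hairpins follow, since the strand balance of miR-27a moved furthest of the 4 member hairpins tested, with both mature arms in capitals and the loop between them in lower case.
MIR27A: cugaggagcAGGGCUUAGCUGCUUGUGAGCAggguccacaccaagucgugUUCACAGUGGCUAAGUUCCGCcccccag
MIR27B: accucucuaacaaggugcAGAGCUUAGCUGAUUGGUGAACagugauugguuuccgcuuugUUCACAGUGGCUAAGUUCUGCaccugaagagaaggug

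The loop between the annotated arms holds 19 bases in MIR27A and 20 in MIR27B, against 14 in MIR23A, 16 in MIR23B and 15 in each of MIR24-1 and MIR24-2.

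The libraries held 144067 to 229302 miRNA counts in R821E and 179615 to 255296 in the 10 other libraries, and the 9 members together held 2626 to 3525 counts in R821E and 6740 to 13769 in the others. Small-RNA counts give no level of the DICER mRNA, so the rescue itself was not checked here. The R821E libraries stood apart before any test. They had 13.4 to 15.3 miRNA counts per spike-in count, against 16.5 to 25.9 in the others, and TMM factors, which scale a library to the bulk of its miRNAs, of 0.714 to 0.804 against 0.990 to 1.15. In bulk RNA, fewer cells of a type and less RNA per cell cannot be told apart. Of 6 epithelial miRNAs checked, all 6 were detected, with a summed level of 1191 to 1244 CPM (counts per 1000000 miRNA counts, TMM-scaled) in R821E and 1931 to 2355 CPM in the others. Of 14 miRNAs of other cell types, 13 were in the table, with a summed level of 2022 to 2168 CPM in R821E and 1633 to 2325 CPM in the others. Some were low, with a highest value in any library of 7.01 CPM for leukocyte miR-223-3p, 4.17 CPM for neuronal miR-124-3p and 12.2 CPM for hepatocyte miR-122-5p. Others were well above these, also for the same cell types. Leukocyte miR-142-3p was at 121 to 410.1 CPM, and neuronal miR-9-5p, the most abundant, at 489 to 1216 CPM over the 12 libraries. Leukocyte and neuronal markers thus did not go one way. Erythroid miR-451a was at 121 to 311 CPM, but erythroid miR-144-3p was at 0 to 69.1 CPM. Smooth-muscle miR-145-5p was at 238 to 576 CPM, but smooth-muscle miR-143-3p was at 8.64 to 54.3 CPM. Erythroid and smooth-muscle markers thus did not go one way either. Endothelial miR-126-3p was at 91.6 to 442 CPM. The part of these marker levels in the results was not tested.

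In R821E the 5 guide strands were lower than in WT and miR-27a-5p, the partner strand of the miR-27a hairpin, was higher, both relative to the other miRNAs. The 9 members made up 1.54% and 1.82% of miRNA counts in R821E, against 5.49% and 3.97% in WT. The 5 3p members alone took 1.55% ± 0.183 in R821E and 4.60% ± 1.06 in WT (SD, n = 2 each). By edgeR's quasi-likelihood test with Benjamini-Hochberg adjustment over all tested entries, on the TMM scale, 5 of 9 members fell and 1 rose in R821E. Of all tested entries, 24.1% were called lower and 23.8% higher (47.9% either way), and of the 148 tested 3p entries 56 fell and 18 rose. The median log2 fold change was -0.46 over the members and -0.97 over their 3p strands, beside -0.10 over all tested entries and -0.58 over all tested 3p entries. The R821E and WT libraries did not overlap for 6 of 9 members, as for 74.6% of all tested entries. Where R821E is said below to lie outside every other library, the share of all tested entries that did so was not counted.

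**Figure D1:**
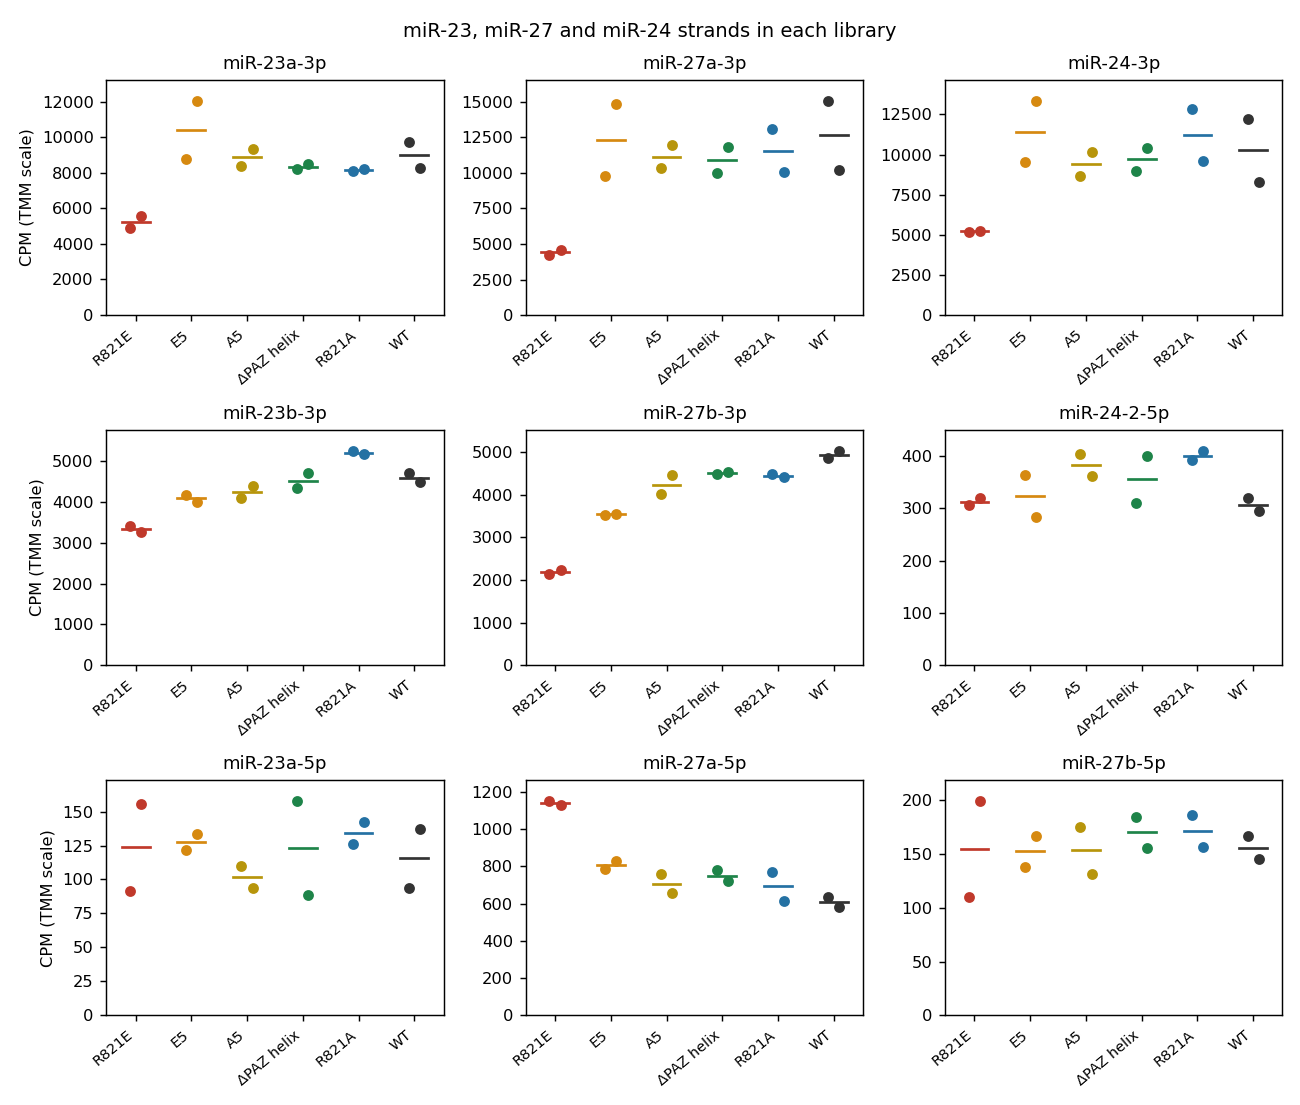
CPM on the TMM scale (vertical axis, from 0) of each of the 9 members in each library, with R821E at the left and WT at the right of each panel; points are libraries and bars are group means of 2. The R821E points lie below all others for the 5 3p strands, at 4239 and 4587 CPM for miR-27a-3p, and above all others for miR-27a-5p, at 1148 and 1132 CPM.

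miR-27a-3p, the most abundant member by mean level in WT, had 4239 and 4587 CPM in R821E, 9789 and 14853 CPM in E5, 10324 and 11918 CPM in the A5 pair, 9993 and 11805 CPM in ΔPAZ helix, 13044 and 10039.9 CPM in R821A, and 15035 and 10221 CPM in WT. Both R821E libraries lay below every other library, whose values overlapped between groups. It fell in R821E against WT with a log2 fold change of -1.52 ± 0.225 (SE; edgeR, adjusted p = 2.21e-04). Among all miRNA entries ordered by mean level it stood at place 39 in R821E, 10 in each other mutant and 5 in WT.

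miR-27b-3p, with the same seed, had 2144 and 2220 CPM in R821E, 3526 and 3539 CPM in E5, 4005 and 4460 CPM in the A5 pair, 4486 and 4530.0 CPM in ΔPAZ helix, 4476 and 4409 CPM in R821A, and 4848 and 5013 CPM in WT. R821E was lowest and E5 next, neither overlapping any other group, and both WT libraries were above every mutant library. The log2 fold change in R821E against WT was -1.18 ± 0.125 (edgeR, adjusted p = 1.28e-05). Its replicates lay closer together than those of miR-27a-3p, and its adjusted p was the lowest of the 9 members.

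miR-24-3p had 5198 and 5261 CPM in R821E, 9519 and 13325 CPM in E5, 8678 and 10128 CPM in the A5 pair, 9003 and 10419.6 CPM in ΔPAZ helix, 12827 and 9599 CPM in R821A, and 12230.2 and 8272 CPM in WT. The R821E libraries were below all others, and the other 5 groups overlapped. It fell by 0.97 ± 0.209 on the log2 scale in R821E against WT (edgeR, adjusted p = 0.00223). Without WT replicate 1, the higher of the WT pair, the log2 fold change was -0.62 (adjusted p = 0.0263).

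miR-23a-3p had 4887 and 5546 CPM in R821E, 8763 and 12027 CPM in E5, 8408 and 9316 CPM in the A5 pair, 8221 and 8479 CPM in ΔPAZ helix, 8113 and 8198 CPM in R821A, and 9709 and 8279 CPM in WT. R821E was again below every other library, and the log2 fold change against WT was -0.79 ± 0.157 (edgeR, adjusted p = 0.00138). miR-23b-3p, which shares its seed, had 3408 and 3265 CPM in R821E, 4188 and 4010.5 CPM in E5, 4114 and 4408 CPM in the A5 pair, 4342 and 4712 CPM in ΔPAZ helix, 5250.0 and 5176 CPM in R821A, and 4709 and 4491 CPM in WT. R821E was lowest and R821A highest, and neither overlapped another group. The fall of miR-23b-3p in R821E against WT was the smallest of the 5, with a log2 fold change of -0.46 ± 0.123 (edgeR, adjusted p = 0.00725). It missed the threshold without WT replicate 1 (-0.38, adjusted p = 0.0556), without R821E replicate 1 (-0.46, adjusted p = 0.0573), without R821E replicate 2 (-0.36, adjusted p = 0.124) and in a fit of only the 4 libraries compared (-0.38, adjusted p = 0.130).

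miR-27a-5p had 1148 and 1132 CPM in R821E, 784 and 830.5 CPM in E5, 758 and 654 CPM in the A5 pair, 778 and 721 CPM in ΔPAZ helix, 771 and 615 CPM in R821A, and 635 and 580 CPM in WT. Both R821E libraries were above every other library, and R821A was the one other group that overlapped WT. Its log2 fold change in R821E against WT was 0.91 ± 0.188 on the TMM scale (edgeR, adjusted p = 0.00163), 0.36 with total miRNA counts as the scale (adjusted p = 0.172) and -0.39 with spike-in counts (adjusted p = 0.0725), and the rise was thus seen relative to the bulk of the miRNAs and turned round relative to the spike-ins.

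The other 3 5p strands were low, and in R821E miR-27b-5p and miR-23a-5p, unlike miR-24-2-5p, differed widely between the replicates. miR-24-2-5p had 305 and 320 CPM in R821E and 319 and 294 CPM in WT, miR-27b-5p had 110.0 and 199 CPM in R821E and 166 and 145 CPM in WT, and miR-23a-5p had 91.6 and 155 CPM in R821E and 93.6 and 137 CPM in WT. The R821E values overlapped those of WT for all 3, and with 15 to 23 counts per R821E library for miR-23a-5p and miR-27b-5p, changes of moderate size were not detectable at this depth. Their log2 fold changes on the TMM scale were 0.03 ± 0.235, -0.05 ± 0.325 and 0.06 ± 0.381 in that order (edgeR, adjusted p = 0.933, 0.902 and 0.902).

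**Figure D2:**
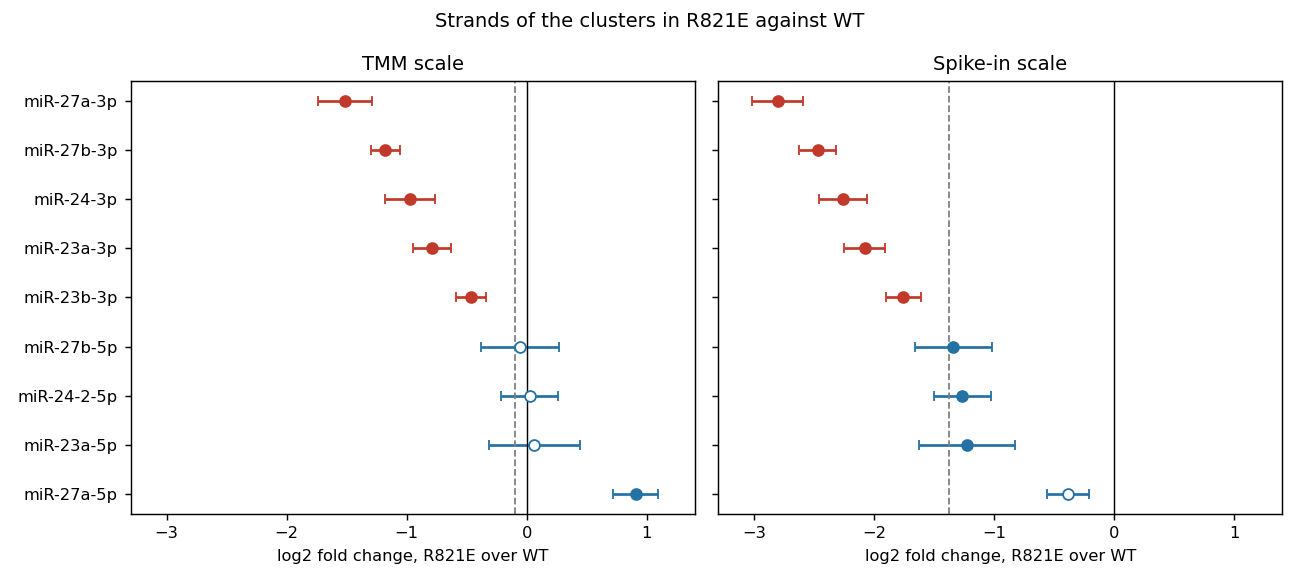
Log2 fold change of R821E over WT (horizontal axis) for the 9 members on the TMM scale (left) and with spike-in counts as library size (right); bars are standard errors, 3p strands are red, 5p strands blue, filled points passed the test, and the dashed line is the median of all tested entries, at -0.10 on the left and -1.38 on the right. The order of the members is the same on both scales, and miR-27a-5p is positive on the left at 0.91 and negative on the right at -0.39.

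Every member was lower by more than 1 log2 unit on the spike-in scale than on the TMM scale. With spike-in counts as library size, the median log2 fold change of all tested entries was -1.38, and 60.4% of entries were lower in R821E than in WT by edgeR (60.7% called either way). On that scale 8 of 9 members were lower, at -2.81 for miR-27a-3p, -2.47 for miR-27b-3p, -2.26 for miR-24-3p, -2.08 for miR-23a-3p, -1.76 for miR-23b-3p, -1.34 for miR-27b-5p, -1.27 for miR-24-2-5p and -1.23 for miR-23a-5p. The 5 3p strands lay below the median of all entries and the 4 5p strands above it. Per 1000 spike-in counts, miR-27a-3p had 46.4 and 49.3 counts in R821E and 388 and 281 in WT, while miR-27a-5p had 12.6 and 12.2 in R821E and 16.4 and 16.0 in WT. With total miRNA counts as the scale, where the median of all entries was -0.65 and 40 entries were higher and 148 lower, 5 members were lower and 0 higher, among them miR-24-3p at -1.53, miR-23a-3p at -1.33 and miR-23b-3p at -1.01. No source used here gives the amount of spike-in or the step at which it was added.

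The 2 strands of one hairpin were then set against each other, since the scale of a library cancels in their ratio. The balance of the miR-27a hairpin moved toward its 5p strand in R821E. The 5p share of miR-27a counts was 21.3% (188 of 882 counts, 95% exact binomial interval 18.7 to 24.2) and 19.8% (interval 16.8 to 23.0) in the R821E libraries. It was 7.41% and 5.30% in E5, 6.84% and 5.20% in the A5 pair, 7.23% and 5.76% in ΔPAZ helix, 5.58% and 5.78% in R821A, and 4.05% and 5.37% in WT. Both R821E shares were above those of every other library, and their intervals did not reach those of the other libraries. These intervals take in counting error and nothing else, because amplified reads with no molecular identifier need not be separate molecules.

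By limma on log2 of (5p + 0.5)/(3p + 0.5), over 71 hairpins whose arms each averaged at least 20 counts, 3 of 4 member hairpins moved toward 5p in R821E against WT and none toward 3p. The R821E and WT ratios did not overlap for 4 of 4 member hairpins, beside 55 of the 71 hairpins. Of the 71 hairpins, 42.3% shifted to the 5p side and 14.1% to the 3p side, and the median log2 difference was 0.46. The difference was 2.40 ± 0.230 for miR-27a (adjusted p = 9.11e-06). For miR-27b it was 1.12 ± 0.333 (adjusted p = 0.0145), with 5p shares of 4.88% and 8.21% in R821E and 3.32% and 2.81% in WT. The miR-27b call rested on single libraries: it was lost without R821E replicate 2 (0.72, adjusted p = 0.122), without WT replicate 2 (1.00, adjusted p = 0.0552) and with only the 4 libraries compared (adjusted p = 0.0597).

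For miR-24-2 the difference was 0.98 ± 0.290 (limma, adjusted p = 0.0145), with 5p shares of 5.55% and 5.73% in R821E and 2.54% and 3.43% in WT, and it was lost without WT replicate 1 (0.76, adjusted p = 0.101). miR-24-3p counts from both hairpins enter this ratio. The miR-24-1 hairpin of the other cluster, whose 5p strand is no member, had 11.2% and 6.45% in R821E and 2.60% and 2.43% in WT, a difference of 1.85 ± 0.294 (adjusted p = 3.75e-04). The miR-23a ratio did not pass (0.88 ± 0.365, adjusted p = 0.0553), with 5p shares of 1.84% and 2.73% in R821E and 0.955% and 1.63% in WT. It passed without WT replicate 2 (1.27, adjusted p = 0.0197), without R821E replicate 1 (1.16, adjusted p = 0.0421) and with a pseudocount of 1 (adjusted p = 0.0499). miR-23b was not tested, because its 5p strand had a mean of 17.6 counts.

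**Figure D3:**
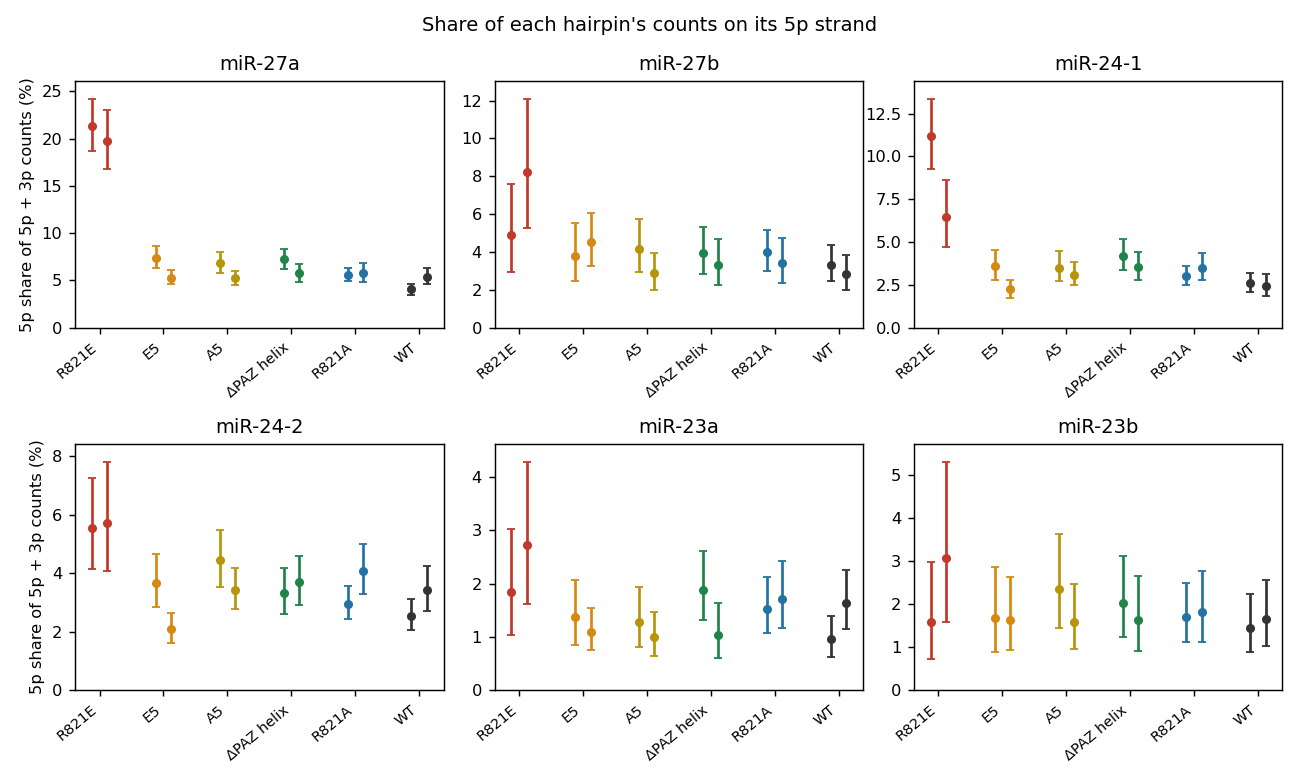
Share of each hairpin's counts on its 5p strand (vertical axis, percent, from 0, a scale of its own in each panel) in each library, with exact binomial 95% intervals that cover counting error only, R821E at the left and WT at the right. For miR-27a the R821E libraries stand at 21.3% and 19.8% and the 10 others between 4.05% and 7.41%, while for miR-23a the lower R821E share, 1.84%, lies within the range of the others.

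Within each cluster the miR-27 guide was lower relative to its miR-23 neighbour in R821E. The ratio of miR-27a-3p to miR-23a-3p counts was 0.868 and 0.827 in R821E, against 1.12 to 1.61 in the 10 other libraries. The ratio of miR-27b-3p to miR-23b-3p was 0.629 and 0.680 in R821E, against 0.842 to 1.12 in the others. In both clusters R821E fell outside all other libraries, and the mean log2 ratio was lower by the same rounded amount against WT, -0.71. How reads matching both paralogues were counted is not stated, so the ratios of the 2 clusters may share reads and need not be independent. An exact two-sided permutation test gave p = 0.333 for each ratio, the smallest p that 2 against 2 libraries allow. Between the 3p paralogues, R821E overlapped the other libraries. The ratio of miR-27a-3p to miR-27b-3p averaged 2.02 ± 0.0629 in R821E and 2.57 ± 0.751 in WT, and that of miR-23a-3p to miR-23b-3p averaged 1.57 ± 0.187 in R821E and 1.95 ± 0.154 in WT (SD, n = 2 each). The 5p strands of the miR-27 pair did not overlap, at 10.4 and 5.70 (a over b) in R821E and 3.81 to 5.68 in the others, the first value resting on 18 counts of miR-27b-5p.

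On the TMM scale, 1 member was called in 1 of the other 4 DICER mutants, while on the spike-in scale 3 to 4 members were lower in 3 of them. In E5 1 of 9 members, miR-27b-3p, was lower than in WT (-0.48 ± 0.121, edgeR, adjusted p = 0.0266), where 6.68% of all entries were lower, 2.41% higher and 9.09% called either way. E5 had 3526 and 3539 CPM of it and WT 4848 and 5013 CPM. The call was lost without any one of the 4 libraries (adjusted p = 0.0513 to 0.180), without the filter on low counts (adjusted p = 0.234), with only the 4 libraries compared (adjusted p = 0.328), and when the a and b paralogues were summed (-0.16, adjusted p = 0.671). The next largest difference of a member in E5 was miR-27a-5p at 0.41 ± 0.186 (adjusted p = 0.208).

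A5, ΔPAZ helix and R821A had 0 of 9 members called against WT by edgeR, 0 at an unadjusted p under 0.05 and 0 by DESeq2. The share of all entries that DESeq2 called is not given here, so its 0 has no background to be read against. Of all 374 entries 0.267% were called in A5, 0.267% in ΔPAZ helix and 3.21% in R821A (2.94% lower), and 52, 44 and 39 entries in that order had an unadjusted p under 0.05. The members' log2 fold changes ran from -0.22 to 0.32 in A5, from -0.21 to 0.30 in ΔPAZ helix and from -0.15 to 0.38 in R821A, with standard errors of 0.12 to 0.36. miR-27a-5p was above 0 in all 5 mutants on the TMM scale, at 0.91 for R821E, 0.41 for E5, 0.21 for A5, 0.30 for ΔPAZ helix and 0.19 for R821A. It was below 0 in all 5 on the spike-in scale. On the TMM scale miR-24-2-5p was likewise above 0 in all 5, from 0.03 in R821E to 0.38 in R821A. So was miR-24-1-5p, which is no member, from 0.26 in A5 to 0.95 in R821E. The other 5p strands did not keep one sign. miR-27b-5p was below 0 in R821E, E5 and A5, miR-23a-5p in A5, and miR-23b-5p, which is no member, in E5. How many of all tested entries kept one sign in all 5 mutants is not given here. Of these member values, only that of miR-27a-5p in R821E passed the test. These comparisons share the WT libraries. On the spike-in scale 3 members were lower in E5 (27.3% of all entries), 3 in A5 (14.7%), 4 in ΔPAZ helix (13.1%) and 0 in R821A (4.28%). In E5 these were miR-27b-3p at -1.08, miR-23b-3p at -0.76 and miR-27a-3p at -0.62 on the log2 scale. In A5 they were miR-27b-3p at -0.68, miR-27a-3p at -0.63 and miR-23b-3p at -0.57. In ΔPAZ helix they were miR-27a-3p at -0.66, miR-27b-3p at -0.58, miR-23a-3p at -0.55 and miR-23b-3p at -0.47. The arm ratios had 0 of 4 member hairpins called in E5, A5, ΔPAZ helix and R821A by limma, where 4.23% of the 71 hairpins were called in E5 and 0% in the others. At an unadjusted p under 0.05 there were 0 of 4 member hairpins in each, beside 12 of the 71 hairpins in E5, 7 in A5, 10 in ΔPAZ helix and 8 in R821A.

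**Figure D4:**
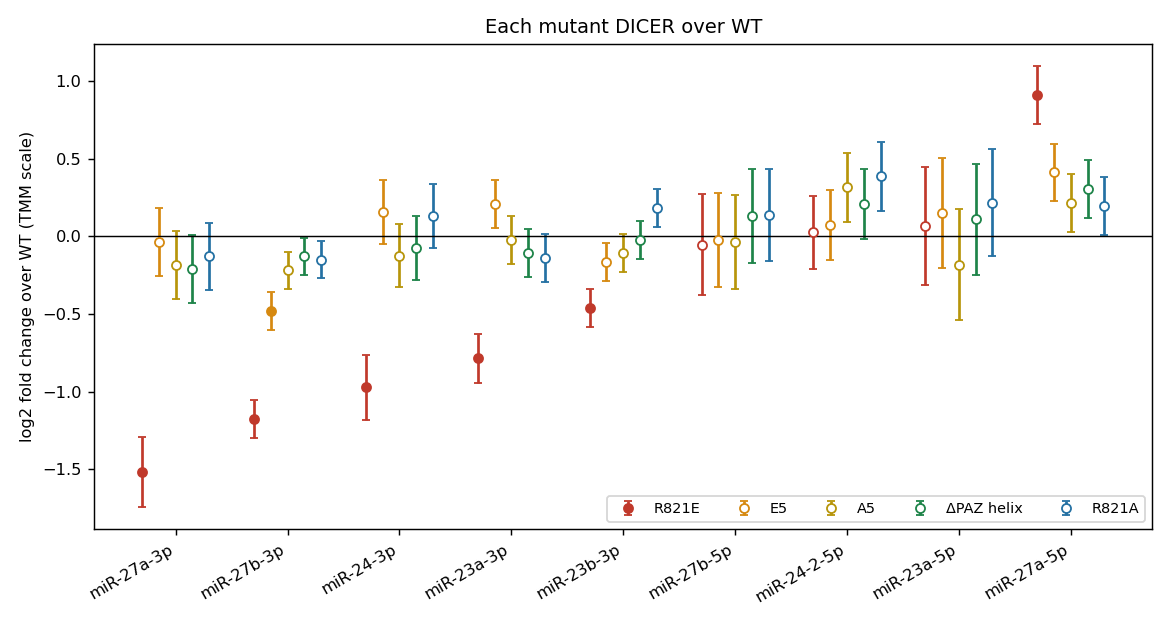
Log2 fold change over WT on the TMM scale (vertical axis) for the 9 members in the 5 mutants, R821E to R821A from left to right at each member; bars are standard errors and filled points passed the test. Filled points are the 5 3p strands and miR-27a-5p in R821E and miR-27b-3p in E5, at -0.48.

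The 2 substitutions of R821 were also set against each other, which asks whether glutamate and alanine at this residue leave different amounts of the strands. R821E had 5 of 9 members lower than R821A and 1 higher (edgeR, with 19.5% of all entries lower, 21.9% higher and 41.4% either way). The log2 fold changes were -1.39 ± 0.224 for miR-27a-3p (adjusted p = 7.14e-04), -1.10 ± 0.209 for miR-24-3p (adjusted p = 0.00145), -1.03 ± 0.124 for miR-27b-3p (adjusted p = 1.08e-04), -0.65 ± 0.157 for miR-23a-3p (adjusted p = 0.00668) and -0.64 ± 0.123 for miR-23b-3p (adjusted p = 0.00148). The call on miR-23a-3p was lost without R821E replicate 1 (-0.54, adjusted p = 0.0817). miR-27a-5p was higher at 0.71 ± 0.187 (adjusted p = 0.00969), was -0.24 on the spike-in scale (adjusted p = 0.316), and lost its call without R821E replicate 1 (0.72, adjusted p = 0.0504), without R821A replicate 2 (0.60, adjusted p = 0.0678), without the filter on low counts (0.53, adjusted p = 0.177) and with total counts (0.19, adjusted p = 0.489).

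The miR-27a strand ratio was higher in R821E than in R821A by 2.10 ± 0.230 on the log2 scale (limma, adjusted p = 3.73e-05), where 33.8% of the 71 hairpins moved toward 5p and 5.63% toward 3p. The other 3 member hairpins did not pass, at 0.84 ± 0.333 for miR-27b (adjusted p = 0.0650), 0.74 ± 0.290 for miR-24-2 (adjusted p = 0.0643) and 0.50 ± 0.365 for miR-23a (adjusted p = 0.307). miR-27b passed without R821E replicate 1 (1.23, adjusted p = 0.0222), and miR-24-2 without R821A replicate 2 (0.97, adjusted p = 0.0489) and with only the 4 libraries compared (adjusted p = 0.0158). On the spike-in scale 8 of 9 members were lower in R821E than in R821A, beside 48.9% of all entries (49.2% called either way), and with total counts miR-24-2-5p also passed as lower (-0.88, adjusted p = 0.0115). E5 against A5, the other direct pair of mutants, had 0 of 9 members and 0 of 374 entries (0%) called by edgeR. It had 0 members called by DESeq2, whose share of all entries is not given here. At an unadjusted p under 0.05 there were 0 members and 36 entries. The member nearest the threshold there was miR-27b-3p, at -0.26 ± 0.122 (unadjusted p = 0.0502, edgeR adjusted p = 0.507).

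Entries of the same clusters outside the 9 were few. miR-24-1-5p, the partner of miR-24-3p in MIR24-1, had 654 and 363 CPM in R821E and 326 and 206 CPM in WT, and rose relative to the other miRNAs (0.95 ± 0.290, edgeR, adjusted p = 0.0152) but was at -0.34 on the spike-in scale. Its R821E libraries differed by more than the WT pair did, and the lower of them lay within the range of the other mutants. miR-23b-5p had 55.0 and 104 CPM in R821E and 69.4 and 76.3 CPM in WT, with overlapping groups. miR-23c, which has the seed of miR-23a-3p, had 1 count over all 12 libraries. miR-3074-5p and miR-3074-3p, from the strand opposite MIR24-1, had 0 to 2 counts in each library, and these 3 entries were not tested. miR-128-3p, whose seed overlaps that of miR-27 by an offset of 1 base, had 269 and 311 CPM in R821E and 870.4 and 775 CPM in WT (-1.51 ± 0.244, edgeR, adjusted p = 2.97e-04).

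Among the 5 guide strands, the widest gaps between the 2 libraries of a group were those of miR-27a-3p and miR-24-3p. Replicate 1 minus replicate 2 on the log2 CPM scale was -0.60 for miR-27a-3p and -0.48 for miR-24-3p in E5, 0.38 and 0.42 in R821A, and 0.56 and 0.56 in WT. These differences had the same sign for both in 6 of 6 groups. The sign matched that of miR-27a-3p in 5 of 6 groups for miR-23a-3p. For the chromosome 9 strands it matched in 5 of 6 for miR-27b-3p and 4 of 6 for miR-23b-3p, so sign agreement did not set the clusters apart. The largest difference in any group was 0.12 for miR-23b-3p and 0.16 for miR-27b-3p. Over the 85 entries averaging 1000 CPM or more, a limit chosen after the values were seen, the median absolute difference was 0.21 in E5, 0.20 in R821A and 0.30 in WT. The 90th percentile was 0.64 in E5, 0.45 in R821A and 0.91 in WT, above the gaps of miR-27a-3p and miR-24-3p in those groups. Among the 10 libraries other than R821E, the log2 CPM of miR-27a-3p had Pearson's r of 0.91 with miR-24-3p, 0.71 with miR-23a-3p, 0.07 with miR-23b-3p and 0.01 with miR-27b-3p. These points share their libraries and scaling factors, and the values are a description.

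**Figure D5:**
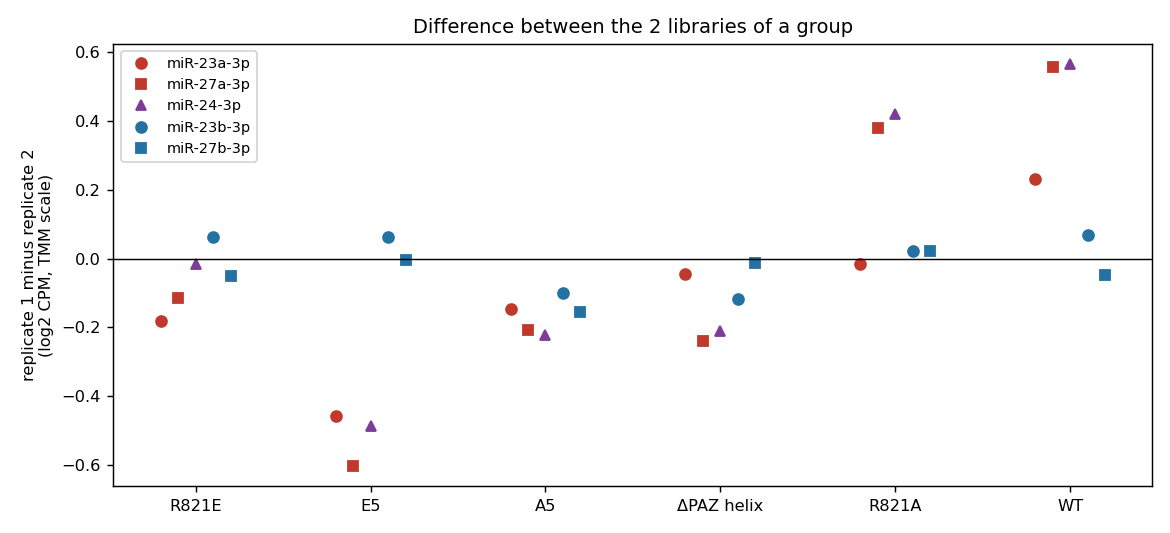
Replicate 1 minus replicate 2 (vertical axis, log2 CPM on the TMM scale) for the 5 3p members in each group, R821E at the left and WT at the right; red and purple points are strands of the chromosome 19 cluster, miR-24-3p coming from both clusters, and blue points are strands of the chromosome 9 cluster. Blue points stay within 0.16 of 0, while miR-27a-3p and miR-24-3p reach -0.60 in E5 and 0.56 in WT.

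The entries most like the miR-27a strands across all 12 libraries were found by Pearson's r of log2 CPM among the 239 entries averaging 100 CPM or more, leaving out the members and the related entries above. For miR-27a-3p these were miR-33b-5p (r = 0.97), miR-186-5p (0.96), miR-126-3p (0.95), miR-107 (0.94) and miR-33a-5p (0.92). Among the 10 libraries other than R821E, their r was 0.76, 0.89, 0.82, 0.93 and 0.59 in the same order, so miR-107 and miR-186-5p kept most of their likeness there. For miR-27a-5p they were miR-454-5p (0.97), miR-1260b (0.97), miR-3613-5p (0.95), miR-29b-1-5p (0.95) and miR-10a-5p (0.95), with r of 0.80 to 0.91 without R821E. In R821E against WT the 5 entries like miR-27a-5p had log2 fold changes of 1.12 to 1.42 on the TMM scale and -0.17 to 0.13 on the spike-in scale. The 5 like miR-27a-3p had -1.95 to -0.77 on the TMM scale and -3.23 to -2.06 on the spike-in scale. Both lists were chosen over libraries that include R821E, so these directions on the TMM scale follow in part from the choice.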

How the data were processed

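Small RNA of 12 AQ-seq libraries of HCT116 cells was analysed, 2 for each of 6 rescue DICERs, grouped by the labels. The authors deposited raw counts, whole numbers per miRNA or spike-in entry. Tools named in the submitters' processing notes are BWA, bedtools and cutadapt, and the builds named there are mm10 and hg38; no source used here gives their versions or roles. Library sizes and tests left out the 30 spike-in entries.

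The count test was that of edgeR 4.0.16 under R 4.3.3 (quasi-likelihood, robust, TMM factors, filterByExpr), in one fit of all 12 libraries with 6 residual degrees of freedom. The 374 entries tested held 99.6% of miRNA counts. CPM are counts per 1000000 of the TMM-scaled library. Arm ratios were tested with limma 3.58.1 (trend, robust). Benjamini-Hochberg adjustment ran over all entries or hairpins, with a threshold of 0.05. Both steps were tested on simulated data. The members, lists and tests were chosen with earlier results of these data known. Named entries are the 9 members, 6 related entries, and the 5 most like miR-27a-3p and the 5 most like miR-27a-5p. Alternatives were the DESeq2 size factors, total counts, spike-in counts, no filter, DESeq2 1.42.0, paralogues summed, only the 4 libraries compared, a replicate block, each library left out, and for arm ratios a pseudocount of 1 and a mean of 100 counts. Replicates of a group differed by more than sampling noise (chi-square per degree of freedom 4.43 in ΔPAZ helix to 31.2 in WT, with 5.38 in R821E), so none was a copy.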

Additional observations from a re-analysis of the deposited data

How the results depend on the processing

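The falls of miR-27a-3p, miR-27b-3p and miR-24-3p in R821E against WT and against R821A, that of miR-23a-3p against WT and that of miR-23b-3p against R821A, and the miR-27a strand ratio in both comparisons, kept their call under each alternative run, from -2.81 to -1.17 for miR-27a-3p against WT and from 2.19 to 2.61 for its strand ratio. With spike-in counts as library size the log2 fold change in R821E against WT turned to -0.39 for miR-27a-5p, -1.27 for miR-24-2-5p and -1.23 for miR-23a-5p, and that of miR-27a-5p against R821A to -0.24. The members called on that scale were 3 in E5, 3 in A5 and 4 in ΔPAZ helix against WT. In E5 against WT, where miR-27b-3p was the member called, 0 members were called with no filter, with the paralogues summed, with only the 4 libraries compared, and in each fit that left out a library (0 to 0). With a mean of 100 counts in both arms 1 strand ratio was called in R821E against WT, since miR-27a was then the only member hairpin tested, and against R821A 2 were called with only the 4 libraries compared and 1 to 2 when a library was left out; the causes of the changes were otherwise not tested. A lone library left in a group was assumed to vary like the other groups. Libraries with the same replicate number did not deviate alike across groups (r of -0.499 to 0.374 over 15 pairs of groups, 1 over 0.1). The lowest r was that of E5 with WT and the highest that of R821A with WT. A batch shared between groups under other replicate numbers was not tested. With a replicate block the members called were 6 in R821E against WT, 6 against R821A and 1 in E5 against WT, as without it. Depth limits the 5p strands of miR-23a and miR-27b, which had 15 to 53 counts per library.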
